A study of Mus musculus with 7 samples.

Results

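The stefins and cystatins are protein inhibitors of cysteine proteases, and 7 of their genes were followed by RNA sequencing in haematopoietic stem cells (HSCs), which were sorted from the bone marrow of mice: Stfa1, Stfa2, Stfa2l1, Stfa3, Cstb, Cst3 and Cst7. They are 7 of the 28786 genes counted, matched by Ensembl identifier to their symbols, and all 7 were found. Stfa1 was chosen by its measured level, which differed between the MC38 and control libraries, so its values are a description and carry no test. The other 6 are listed as relatives of Stfa1 and not for a pattern of their own. They were, however, listed with earlier results of these data known. The 4 MC38 libraries came from C57BL/6J mice with MC38 tumours, a transplantable mouse colon carcinoma line, and the controls from normal mice. The mice were 6 to 8 weeks old, the marrow came from femora and tibiae, and each library was made from 1500 sorted cells with 12 cycles of PCR. No genetic change, drug or vehicle is named for either group, and the sources used here do not give the sort gate, the tumour's site and age, the sex or the number of animals behind a library. Nothing says that libraries of a group came from separate mice, so the spread that the p-values measure may be technical. Of 3 control columns, 2 are used below, because the column of control replicate 3 followed the sum of controls 1 and 2 and was not taken as an independent library (its ratio to that sum had a median of 0.353, with 95% of 9652 genes between 0.341 and 0.371).

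Stefins stay inside the cell. They sit in the active site cleft of papain-like proteases such as cathepsins B, L, S and H and block it reversibly. Humans have a stefin A gene and a stefin B gene, whereas in mice stefin A has expanded into a cluster of tandem copies, several of which are known from neutrophils and their precursors. Cystatin C, the product of Cst3, is secreted and made by many cells, and is abundant in dendritic cells and macrophages. Cystatin F, the product of Cst7, is made by cytotoxic lymphocytes and myeloid cells, goes to their lysosome-related granules, and blocks cathepsin C, the enzyme that activates granule serine proteases.

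The libraries held 13368238 to 17657037 counts in MC38 and 12131546 and 12306066 in the controls used. Values are CPM (counts relative to library size, after TMM correction for library composition), as mean ± SD with n = 4 for MC38 and n = 2 for control. All 11 listed markers of HSCs and other early progenitors, among them Kit, Ly6a, Slamf1, Flt3 and Cd48, were present. They summed to 1424 to 1606 CPM in MC38 and 1422 to 1580 CPM in control libraries. Of these markers, 0 passed in edgeR (1 at an unadjusted p under 0.05, 1 with DESeq2, 0 with limma-voom). Over all 14226 genes tested in edgeR, 2488 had an unadjusted p under 0.05, while DESeq2 called 1027 genes and limma-voom 161. The 1 with an unadjusted p under 0.05 in edgeR was Ly6a, at 168.1 ± 8.16 CPM in MC38 and 107.3 ± 18.5 CPM in control libraries. Ly6a was higher in every MC38 library (edgeR adjusted p = 0.052). Neutrophil transcripts were abundant as well. The 12 neutrophil markers summed to 54306 to 61954 CPM in MC38 and 28181 and 28491 CPM in control libraries. Of the 12, 9 rose, where 1.04% of all genes tested were called higher. In a bulk library, fewer cells of a type and less RNA per cell cannot be told apart.

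Stfa2l1 rose in MC38, and Stfa1, the gene chosen for its level, stood higher in every MC38 library. Stfa3 was higher in every MC38 library without passing the test, and Stfa2 overlapped the controls. The groups overlapped for Cstb and Cst3, the members with the highest levels, and Cst7 was lower in every MC38 library without passing. Of the 6 members other than Stfa1, 1 rose (Stfa2l1) and 5 did not pass at an adjusted p under 0.05 in edgeR's quasi-likelihood test. Over all 14226 genes tested, 1.61% were called, 1.04% higher and 0.569% lower in MC38. Among the same 6 members the groups did not overlap for 3, of which Stfa2l1 and Stfa3 were higher and Cst7 lower, where 29.0% of all genes tested had no overlap. All 7 members passed the filter on low counts, which a gene can pass through a single group. The 229 calls over all genes became 60 and 83 when control replicate 1 or 2 was left out, and 442, 97 and 108 when MC38 replicate 1, 2 or 4 was.

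**Figure D1:**
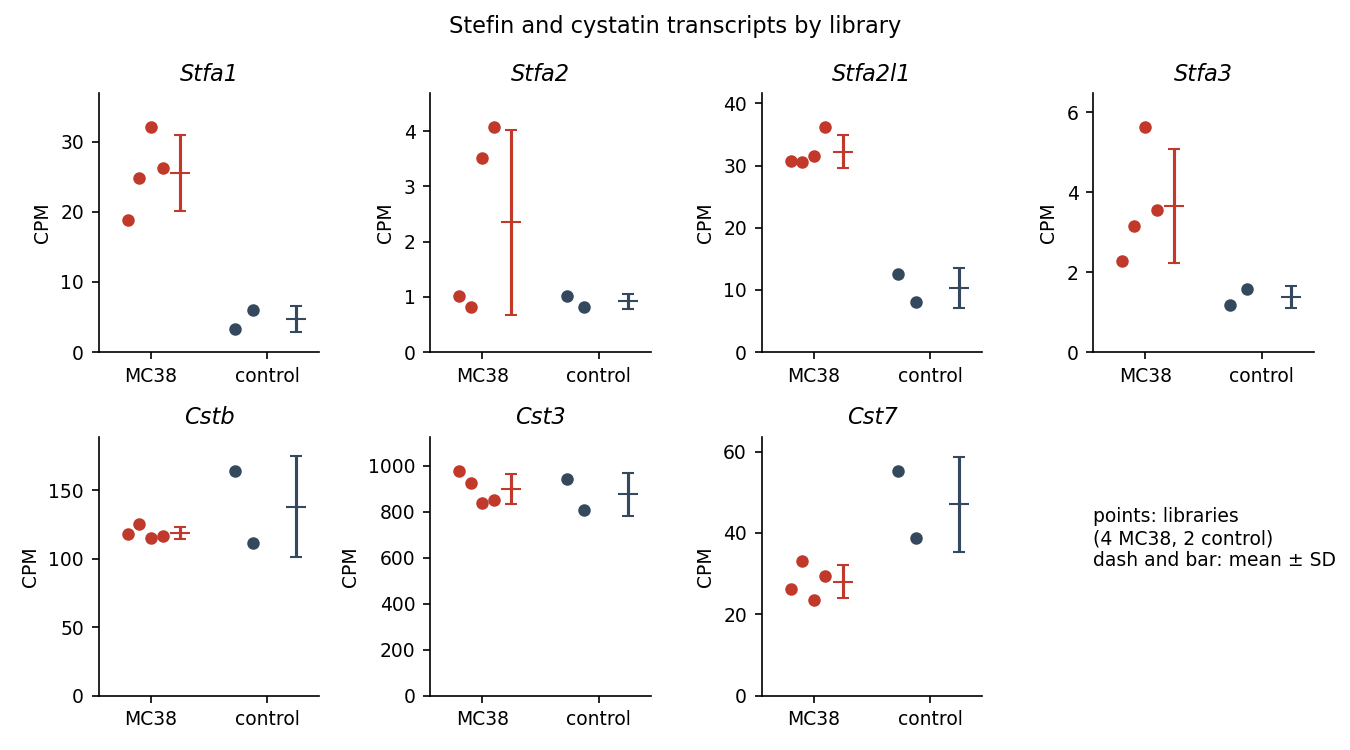
Level of each of the 7 genes in CPM (vertical axes from 0, a scale per gene), with a point per library for MC38 (left, 4 libraries) and control (right, 2 libraries), and the mean ± SD beside the points. Stfa1, Stfa2l1 and Stfa3 were higher in every MC38 library than in both controls, Cst7 was lower in every MC38 library, and the groups overlapped for Stfa2, Cstb and Cst3.

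The stefin A genes lie together on chromosome 16. Between Csta1 and Stfa3 (chr16:36119946-36455392, GRCm38, 335.4 kb), the GENCODE annotation has 10 protein-coding genes, all of them relatives of stefin A, of which Stfa1, Stfa2, Stfa2l1 and Stfa3 are members. The proximal promoters of the members are shown because they show how closely the copies resemble each other where transcription starts. Each runs from 250 bases before to 50 bases after the RefSeq gene start (GRCm38.p6), 5′ to 3′ on the gene's own strand. Stfa1 is chr16:36276898-36277197 (plus strand), Stfa2 is chr16:36408314-36408613 (minus), Stfa2l1 is chr16:36156561-36156860 (plus) and Stfa3 is chr16:36455343-36455642 (minus). Capitals mark every stretch of at least 10 bases that all 4 promoters hold, on their own strand.
Stfa1: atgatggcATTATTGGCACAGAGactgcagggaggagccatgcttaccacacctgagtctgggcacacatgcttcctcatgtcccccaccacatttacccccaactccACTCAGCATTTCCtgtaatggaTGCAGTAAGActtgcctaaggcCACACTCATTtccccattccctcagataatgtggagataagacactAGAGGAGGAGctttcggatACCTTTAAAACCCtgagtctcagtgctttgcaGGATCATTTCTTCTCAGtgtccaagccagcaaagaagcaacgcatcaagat
Stfa2: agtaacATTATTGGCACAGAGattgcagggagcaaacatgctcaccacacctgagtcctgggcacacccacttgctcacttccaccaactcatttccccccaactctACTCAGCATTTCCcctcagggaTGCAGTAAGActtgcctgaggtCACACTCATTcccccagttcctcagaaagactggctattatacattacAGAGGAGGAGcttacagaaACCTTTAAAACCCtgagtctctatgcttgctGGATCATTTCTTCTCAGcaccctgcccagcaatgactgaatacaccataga
Stfa2l1: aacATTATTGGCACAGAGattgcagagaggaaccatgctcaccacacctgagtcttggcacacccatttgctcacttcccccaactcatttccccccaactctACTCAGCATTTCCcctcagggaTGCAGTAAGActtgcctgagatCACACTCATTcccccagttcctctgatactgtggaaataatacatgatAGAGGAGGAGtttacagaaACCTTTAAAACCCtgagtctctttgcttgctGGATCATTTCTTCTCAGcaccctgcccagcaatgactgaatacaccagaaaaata
Stfa3: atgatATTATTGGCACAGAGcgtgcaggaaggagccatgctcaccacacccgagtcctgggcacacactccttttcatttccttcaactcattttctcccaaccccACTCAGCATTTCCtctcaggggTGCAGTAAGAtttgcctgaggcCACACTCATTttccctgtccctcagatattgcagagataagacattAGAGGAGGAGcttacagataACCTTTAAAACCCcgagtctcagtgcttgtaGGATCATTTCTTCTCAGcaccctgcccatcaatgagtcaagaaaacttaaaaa

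The 4 promoters shared 7 such stretches, in the same order and at nearly the same distance from the start. The longest, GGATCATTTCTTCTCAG, spans the start itself and begins 1 base before it in Stfa1 and Stfa2, 5 in Stfa2l1 and 3 in Stfa3. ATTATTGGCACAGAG lies near the far end, beginning 242 bases before the start in Stfa1 and 247 in Stfa2l1. ACCTTTAAAACCC, an A and T rich stretch close upstream, begins 32 to 36 bases before the start. Counted on either strand, the first of these stands in 0.0183%, the second in 0.0152% and the third in 0.0274% of all 32851 RefSeq promoters of this length, and the most common of the 7, AGAGGAGGAG, in 1.03%. Among other cluster genes, Cstdc5 held all 7, Csta3 (Gm5416) 4, Cstdc4 3 and Csta1 2. No match was recorded for Csta2 (2010005H15Rik) and Cstdc6 (BC117090), and whether they had a RefSeq promoter to search is not known here. Csta1, Csta2 and Csta3 had few or no counts, whereas Cstdc4 (Gm5483) averaged 34.0 CPM in MC38 libraries. Copies of a gene share letters by descent, so a match is a description and not a binding site. The core letters of a PU.1 motif, GAGGAA, were in all 4 promoters on some strand, against 28.3% of all promoters, and it overlapped a marked stretch in Stfa3 alone. A C/EBP core, TTGCNNAA, was in Stfa1 alone among the 4, against 10.8%, and an interferon gamma activated site, TTCNNNGAA, was in none of the 4, against 8.3%. In pairwise alignment Stfa2 and Stfa2l1 were the closest members, with 275 identical bases and 21 mismatches, while Stfa1 shared 241 to 248 identical bases with the other stefin A members. With Cstdc5 (BC100530), a cluster gene that is not a member, Stfa1 had 269 identical bases, 10 mismatches and 42 gap bases. RefSeq promoters were found for 6 of the 7 members.

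Stfa1 (ENSMUSG00000071562, chr16:36276951-36285373, plus strand) was at 18.9, 24.8, 32.0 and 26.2 CPM in MC38 replicates 1 to 4 and at 3.36 and 6.03 CPM in control replicates 1 and 2. Every MC38 library was above both controls. These are 281, 363, 576 and 354 counts in MC38 and 40 and 73 counts in control libraries. The fitted log2 fold change was 2.44 (SE 0.36), a 5.42-fold higher level in MC38, which ran from 2.08 without control replicate 1 to 2.92 without control replicate 2. Among the MC38 libraries the highest was 1.70 times the lowest, and the controls differed from each other by a larger ratio than that.

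Stfa2l1 (ENSMUSG00000059657, chr16:36156811-36161953, plus strand), a stefin A copy named for its likeness to Stfa2, was at 30.7, 30.6, 31.5 and 36.2 CPM in MC38 and at 12.6 and 8.01 CPM in control libraries. The MC38 libraries lay close together and none overlapped the controls. It rose 3.13-fold (log2 fold change 1.64, SE 0.26, edgeR adjusted p = 0.0157, higher in 4 of 4 MC38 libraries). Leaving out control replicate 2 ended the call (edgeR adjusted p = 0.0948), as did leaving out MC38 replicate 2 (0.0528) or 4 (0.0626). Over 12 alternatives the adjusted p lay between 2.81e-07 (DESeq2) and 0.0948.

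Stfa3 (ENSMUSG00000054905, chr16:36450537-36455392, minus strand), the copy at the end of the cluster, was at 2.29, 3.15, 5.62 and 3.55 CPM in MC38 and at 1.18 and 1.57 CPM in control libraries. The groups did not overlap, but the counts were low, 34 to 101 in MC38 and 14 and 19 in control libraries, and the gene did not pass (log2 fold change 1.41, SE 0.70, edgeR adjusted p = 0.333). Stfa2 (ENSMUSG00000022902, chr16:36403992-36408457, minus strand) split the MC38 libraries, with 1.01 and 0.82 CPM in replicates 1 and 2 and 3.51 and 4.07 CPM in replicates 3 and 4, against 1.01 and 0.825 CPM in the controls. MC38 replicates 1 and 2 were thus at the level of the controls and only replicates 3 and 4 were above them. These were 15, 12, 63 and 55 counts in MC38 and 12 and 10 counts in control libraries, and Stfa2 did not pass (log2 fold change 1.35, SE 1.00, edgeR adjusted p = 0.536).

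Near-identical copies can lose reads that fit several genes or have them counted at another copy, so the transcripts of the copies were compared. Of the distinct 50-base stretches in Stfa1 transcripts, 77.5% were found in no other gene's transcripts, on either strand. The share was 84.1% for Stfa2 and 75.4% for Stfa2l1, and 100% for Stfa3, Cstb, Cst3 and Cst7. Stfa1 shared most with its neighbour BC100530 (19.4% of its stretches) and with BC117090 (9.01%), and Stfa2 and Stfa2l1 shared 14.7% and 16.8% of theirs with each other. With stretches of 100 bases the shares were 94.9% for Stfa1 and 100% for Stfa2 and Stfa2l1. The sources used here give neither the read length nor the treatment of reads that match several places, so the counts of Stfa1, Stfa2 and Stfa2l1 are uncertain to that extent. No annotated gene overlaps any of the 7 members.

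**Figure D2:**
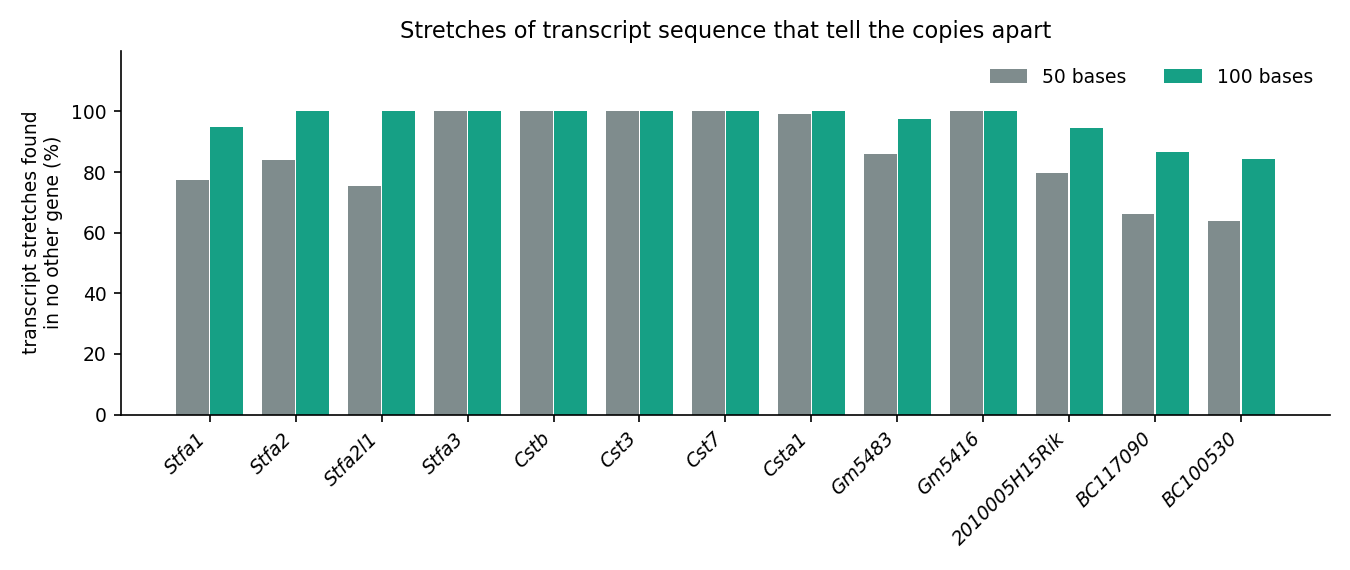
Percentage of the distinct transcript stretches of each gene that occur in no other gene's transcripts, for stretches of 50 and 100 bases. The bars of Stfa1, Stfa2 and Stfa2l1 stand at 77.5%, 84.1% and 75.4% for 50 bases, and those of Stfa3, Cstb, Cst3 and Cst7 at 100% for both lengths.

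A sum over copies is free of how reads are split among the genes summed, but not of reads dropped or shared with genes outside it. The sum of the 4 members leaves out BC100530 and BC117090, which share stretches with Stfa1, and both sums leave out Gm49652, which holds 7.84% of the 50-base stretches of Stfa2l1. The 4 stefin A members together were at 52.9, 59.4, 72.7 and 70.0 CPM in MC38 and at 18.2 and 16.4 CPM in control libraries, 63.7 ± 9.25 and 17.3 ± 1.22 CPM on average (ratio 3.69). Over all 10 cluster genes the sum was 118.2 ± 13.9 CPM in MC38 and 34.8 ± 0.51 CPM in control libraries (ratio 3.40). Every MC38 library was above both controls in both sums, which hold Stfa1 and so carry no test.

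The cluster holds 6 genes that are not members, and 2 of them passed the filter on low counts. Gm5483 (Cstdc4 in RefSeq), a cystatin-domain relative of stefin A, was at 29.9, 31.7, 37.2 and 37.1 CPM in MC38 and at 9.75 and 10.9 CPM in control libraries. It rose 3.29-fold (log2 fold change 1.72, SE 0.23, edgeR adjusted p = 0.00597). BC100530 (Cstdc5 in RefSeq) was at 20.6, 17.4, 19.4 and 22.3 CPM in MC38 and at 6.55 and 7.59 CPM in control libraries, and it rose 2.81-fold (edgeR adjusted p = 0.0333, log2 fold change 1.49, SE 0.28). Neither pair of groups overlapped. Without control replicate 1 or 2 the edgeR adjusted p was 0.0958 and 0.0579 for Gm5483 and 0.201 and 0.107 for BC100530, and BC100530 was also lost without MC38 replicate 2 (0.0898) or 4 (0.136), with limma-voom (0.0736) and with the replicate number as a block (0.0597). Gm5416, 2010005H15Rik and BC117090 had at most 9 counts in any library, and Csta1 had none in the 6 libraries. BC100530 shares 17.5% of its 50-base stretches with Stfa1, and an antisense gene, Gm15845, overlaps it, so reads of these genes cannot be told apart with certainty.

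**Figure D3:**
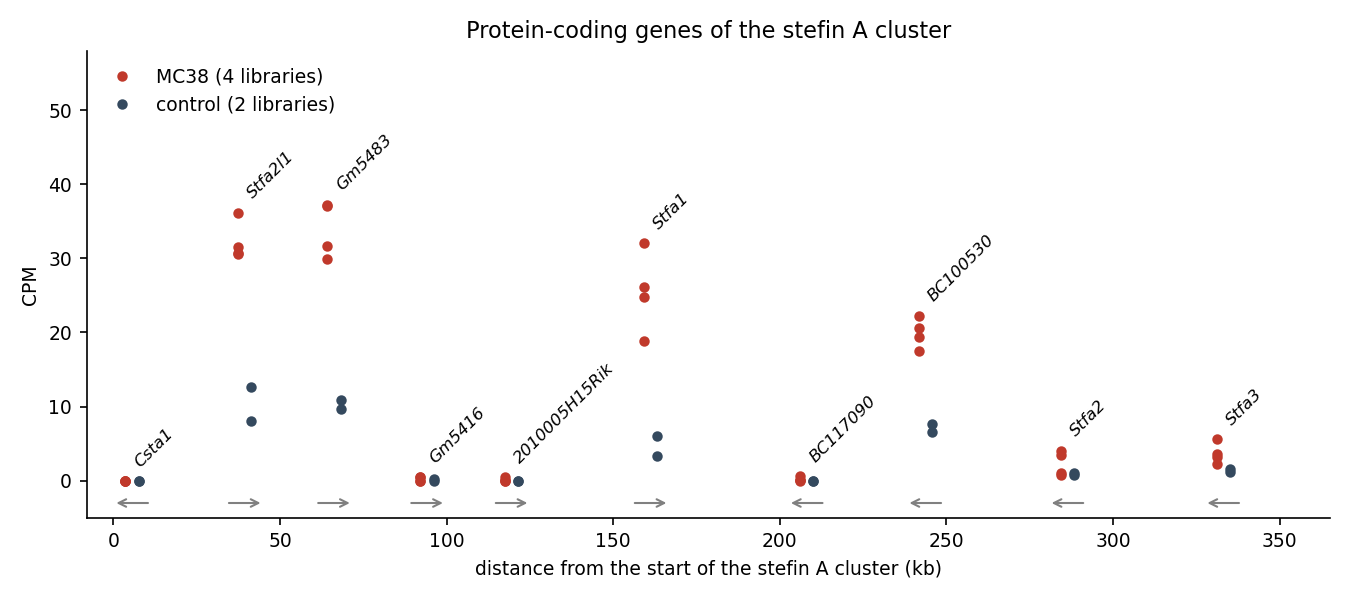
CPM of the 10 protein-coding genes of the stefin A cluster against their distance from the start of the cluster in kb, with a point per library for MC38 (4) and control (2) and arrows for the direction of each gene. Stfa2l1, Gm5483, Stfa1 and BC100530 stand at 17.4 to 37.2 CPM in MC38 and 3.36 to 12.6 CPM in control libraries, and the other genes of the cluster lie below 6 CPM in every library.

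Stfa2l1, Gm5483, Stfa1 and BC100530 supplied 92.5% to 96.4% of the cluster's level in every library. The share of Gm5483 was nearly constant, at 28.8 ± 0.35% in MC38 and 29.6 ± 1.90% in control libraries. Stfa1 supplied 21.5 ± 2.90% in MC38 and 9.76% and 17.1% in the controls, and Stfa2l1 supplied 27.4 ± 2.23% in MC38 and 36.6% and 22.8% in the controls. The controls thus differed most in the split between Stfa1 and Stfa2l1, with Stfa1 the lower of the pair in both. Per kilobase of exon, the scale on which genes can be compared, the order of the 7 members in MC38 was Cst3 (709 CPM per kb in MC38 and 692 in control libraries), Cstb (197 and 229), Stfa2l1 (76.9 and 24.6), Stfa1 (35.9 and 6.61), Cst7 (28.4 and 47.7), Stfa3 (8.86 and 3.33) and Stfa2 (4.99 and 1.95). The ranges of the MC38 libraries overlapped between Stfa1 and Cst7 and between Stfa3 and Stfa2, and these neighbours are ordered by their means alone. Differences between genes within a library were not tested. In the controls, Cst7 stood above both Stfa2l1 and Stfa1.

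Between the groups, neutrophil markers were higher in MC38, as were Stfa1 and Stfa2l1. Of the 12 neutrophil markers, 11 were higher in every MC38 library, where 14.0% of all genes tested were, and Cxcr2 overlapped the controls. The neutrophil list as a whole was 2.05 times its control level, with fitted log2 fold changes from 0.26 (Cxcr2) to 1.41 (Mmp8), a median of 1.11 and no marker at 0. S100a8, a calprotectin subunit, was at 20060 ± 797 CPM in MC38 and 10390 ± 375 CPM in control libraries. Within MC38, the order of the libraries by S100a8 was not their order by Stfa1. Ly6g, the classical surface marker of mouse neutrophils, was at 25.9 ± 3.05 and 11.7 ± 5.15 CPM and did not pass (edgeR adjusted p = 0.0984). Per 10000 CPM of the neutrophil list, the 4 stefin A members were at 8.53, 10.1, 13.4 and 12.2 CPM in MC38 and at 6.37 and 5.83 CPM in control libraries. That sum holds Stfa1, which was chosen for this difference. Without Stfa1 the sum was at 5.48, 5.85, 7.48 and 7.625 CPM in MC38 and at 5.19 and 3.69 CPM in control libraries. Stfa2l1 alone was at 4.95 to 6.30 in MC38 and at 4.42 and 2.84 in control libraries on that scale. These values were computed after the levels were seen. The part of neutrophil transcripts in the stefin A difference was not tested.

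Cstb (ENSMUSG00000005054, chr10:78425669-78427622, plus strand), which encodes stefin B, was at 118.0, 125, 115 and 116 CPM in MC38 and at 164 and 112 CPM in control libraries. The 4 MC38 libraries lay close together, all of them between the controls. The gene did not pass (edgeR adjusted p = 0.527, log2 fold change -0.22, SE 0.16), and the sign turned without control replicate 1 (0.09). Cst3 (ENSMUSG00000027447, chr2:148871722-148875692, minus strand), which encodes cystatin C, had the highest level of the 7 genes, per kilobase too, at 979, 924, 838 and 851 CPM in MC38 and 943 and 809 CPM in control libraries. The groups overlapped and the gene did not pass (log2 fold change 0.04, SE 0.12, edgeR adjusted p = 0.913). Its sign turned without control replicate 2 (-0.07) and without MC38 replicate 1 (-0.01).

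Cst7 (ENSMUSG00000068129, chr2:150570415-150578944, plus strand), which encodes cystatin F, was at 26.2, 33.0, 23.5 and 29.3 CPM in MC38 and at 55.3 and 38.7 CPM in control libraries. All 4 MC38 libraries were below both controls, a separation seen downwards in 15.0% and upwards in 14.0% of all genes tested. Cst7 did not pass in edgeR (log2 fold change -0.75, SE 0.22, edgeR adjusted p = 0.122). It passed with DESeq2 (adjusted p = 0.0467) and with all 7 deposited columns (edgeR adjusted p = 0.0255), the fit that takes control replicate 3 as a library, and not in the other 10 of 12 alternatives. Marker levels of cells known for Cst7 were measured beside it. Summed markers of T and NK cells were at 407 to 447 CPM in MC38 and 424 and 482 CPM in control libraries, with 0 of 11 called in edgeR (4 at an unadjusted p under 0.05, 2 with DESeq2, 0 with limma-voom), 4 of them higher without overlap and 1 lower. That sum is mostly Nkg7, a cytotoxic granule protein, at 364.8 ± 26.9 CPM in MC38 and 420 ± 46.1 CPM in control libraries, whereas the median log2 fold change of the list was 0.84, opposite in sign to the difference of the sums. Klrb1c, the NK1.1 antigen, was at 20.6 ± 4.95 and 6.47 ± 2.26 CPM (edgeR adjusted p = 0.0542). Summed monocyte and macrophage markers were at 3028 to 3189 CPM in MC38 and at 2159 and 2214 CPM in control libraries. Lyz2 and C1qa were called higher among 11, where 1.04% of all genes tested were. Of the 11, 8 were higher without overlap and 7 had an unadjusted p under 0.05 in edgeR. Over all 14226 genes tested, 2488 had an unadjusted p under 0.05 in edgeR, and DESeq2 called 1027 genes. Csf1r was at 17.8 ± 3.99 and 21.4 ± 0.85 CPM (edgeR adjusted p = 0.659). Their part in the level of Cst7 was not tested.

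**Figure D4:**
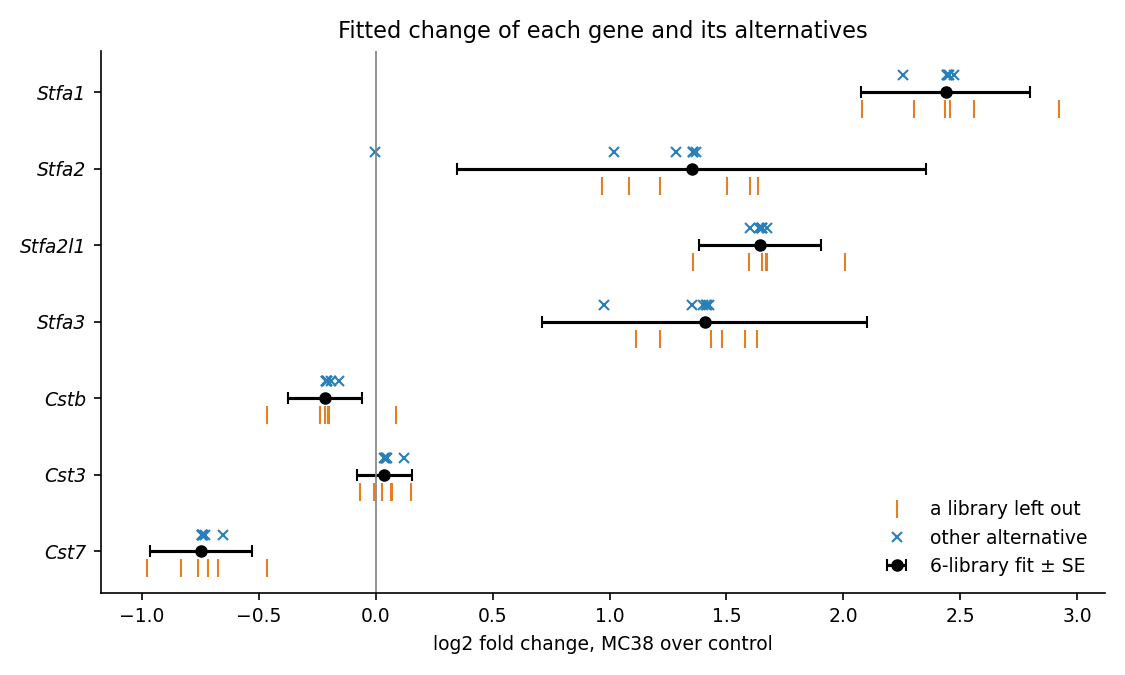
Fitted log2 fold change of MC38 over control for each gene (black, ± SE, 6 libraries), with the values when a library is left out (orange ticks, below) and under the other alternatives (blue crosses, above). Stfa1, Stfa2l1 and Stfa3 stay above 0 and Cst7 below 0 throughout, while Stfa2 reaches -0.0038 with the replicate number as a block and Cstb and Cst3 lie on both sides of 0.

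Dendritic cells are a known source of cystatin C, the product of Cst3. The 10 dendritic cell markers summed to 1333 to 1547 CPM in MC38 and to 1104 and 1337 CPM in control libraries. Siglech, a plasmacytoid dendritic cell receptor, was the 1 marker called, at 68.8 ± 3.90 CPM in MC38 and 29.4 ± 6.90 CPM in control libraries (edgeR adjusted p = 0.013). Over all genes tested, 1.04% were called higher. The summed markers of B cells were at 185 to 233 CPM in MC38 and at 151 and 152 CPM in control libraries, and those of mast cells, basophils and eosinophils at 51.9 to 70.4 and at 94.1 and 99.6 CPM. Those of erythroid cells and megakaryocytes were at 261 to 287 CPM in MC38 and at 292 and 375 CPM in control libraries.

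Beyond the stefin A cluster, few cystatin relatives were expressed. The list of other cystatin superfamily genes also held the 6 cluster genes that are not members. It had 32 names, 24 of them in the count table, 17 with a count in the 6 libraries and 8 tested. Of the 8 tested, 2 lie in the cluster. Of these 8, 3 rose, Gm5483 and BC100530 of the cluster and Ngp, where 1.04% of all genes tested were called higher. The other 5 did not pass, with log2 fold changes from -0.71 (SE 0.67) to 1.30 (SE 1.82). The median log2 fold change of the 8 was 0.91 against 0.01 over all genes tested. Those 8 include Gm5483 and BC100530 of the cluster and the neutrophil markers Ngp and Camp. Ngp, a secreted neutrophil granule protein with a cystatin-like fold that is also among the neutrophil markers, was at 8967 to 9280 CPM in MC38 and 3968 and 4214 CPM in control libraries (edgeR adjusted p = 0.000345, log2 fold change 1.16, SE 0.10). It passed in all 12 alternatives. Camp, another neutrophil marker, whose precursor carries a cystatin-like domain, was at 3668 ± 351 and 2331 ± 390 CPM and just missed the threshold (edgeR adjusted p = 0.051). Lxn, latexin, a carboxypeptidase inhibitor with cystatin-like domains that limits the number of mouse HSCs, was at 79.4 ± 8.83 and 76.2 ± 0.95 CPM (edgeR adjusted p = 0.888). Without either control replicate 1 or 2, Ngp was the 1 gene of the list still called. The kininogens, fetuins and reproductive tract cystatins of the list had at most 5 counts in any library, apart from Fetub at 2.83 ± 2.23 and 1.83 ± 0.09 CPM and Kng2, with 55 counts in MC38 replicate 3 and at most 1 in the others. Cst6, a cystatin of epithelia, was at 1.96 ± 0.48 and 3.20 ± 0.84 CPM (edgeR adjusted p = 0.644).

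Cysteine cathepsins are the proteases that stefins and cystatins bind. Of 11 cysteine cathepsins and legumain, 10 were tested and 0 passed in edgeR, where limma-voom, DESeq2 and the other alternatives also called 0, and their median log2 fold change was -0.07. With 1.61% of all genes called, 0 of 10 is near the background. Unadjusted, Ctsh and Ctss had a p under 0.05 in edgeR, as had 2488 of all 14226 genes tested. Ctsh, cathepsin H, was at 68.0 to 83.7 CPM in MC38 and 63.4 and 48.0 CPM in control libraries (log2 fold change 0.45, SE 0.17, edgeR adjusted p = 0.222). Ctss, cathepsin S, the protease that trims the invariant chain of MHC class II, was at 45.5 to 66.8 CPM in MC38 and 38.2 and 39.3 CPM in control libraries (log2 fold change 0.50, SE 0.20, edgeR adjusted p = 0.246). Neither gene overlapped between the groups, a separation seen in 29.0% of all genes tested. Summed over the list, the cysteine proteases were at 688 to 727 CPM in MC38 and at 738 and 635 CPM in control libraries. Ctsc, cathepsin C, the target of cystatin F, was at 48.7, 51.6, 70.8 and 78.9 CPM in MC38 and at 70.3 and 67.6 CPM in control libraries (edgeR adjusted p = 0.791). MC38 replicates 3 and 4 were thus above both controls and replicates 1 and 2 below them.

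Of 8 granule serine proteases, the class that cathepsin C activates, 1 fell and 7 did not pass, with a median log2 fold change of -0.37, where 0.569% of all genes tested were called lower. Unadjusted, 5 of the 8 had a p under 0.05 in edgeR, as had 2488 of all 14226 genes tested. Without overlap, 4 were lower and 1 higher in MC38, where 15.0% and 14.0% of all genes tested were. Mcpt8, a basophil protease, was at 6.73, 6.77, 7.85 and 9.47 CPM in MC38 and at 31.8 and 31.9 CPM in control libraries (log2 fold change -2.05, SE 0.26, edgeR adjusted p = 0.00444). Its call was lost without control replicate 1 (edgeR adjusted p = 0.0665) or control replicate 2 (0.0537). Mcpt8 is also among the markers of mast cells, basophils and eosinophils, of which Prg2, an eosinophil granule protein, fell as well, at 5.57 ± 1.89 CPM in MC38 and 23.1 ± 3.48 CPM in control libraries (edgeR adjusted p = 0.0256). Epx, eosinophil peroxidase, had 1 count in all 4 MC38 libraries together and 30 and 10 counts in the controls, and did not pass (edgeR adjusted p = 0.0918). The other tested markers of that list did not fall. Cpa3 was higher in every MC38 library, at 30.8 ± 4.45 against 23.8 ± 0.12 CPM (edgeR adjusted p = 0.410). Gata1 and Cma1 overlapped between the groups. The part of these cells in the level of Mcpt8 was not tested. Elane, neutrophil elastase, was at 1479 to 1885 CPM in MC38 and 2197 and 1975 CPM in control libraries, and Prtn3, proteinase 3, at 730 to 1027 CPM and at 1270 and 1100 CPM. Both were lower in every MC38 library and neither passed (edgeR adjusted p = 0.263 for Elane and 0.173 for Prtn3). Prss57 was likewise lower without passing, at 32.7 ± 5.05 CPM in MC38 and 48.6 ± 5.52 CPM in control libraries (edgeR adjusted p = 0.187). Gzmb, granzyme B, was at 4.64 to 6.96 CPM in MC38 and 1.68 and 1.65 CPM in control libraries (edgeR adjusted p = 0.116). Elane, Prtn3, Prss57, Gzmb, Ctsc, Camp, Lxn, Fetub, Kng2, Cst6, Nkg7, Epx, Cpa3, Gata1 and Cma1 were chosen after their values were seen.

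**Figure D5:**
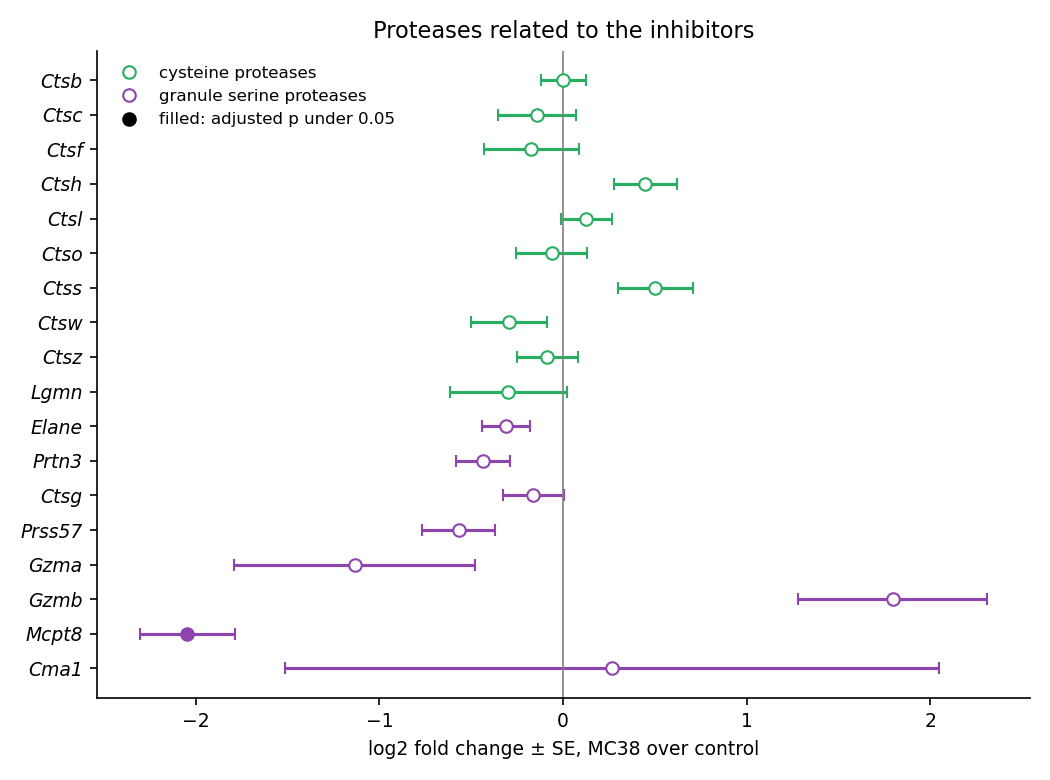
Fitted log2 fold change ± SE of MC38 over control (6 libraries) for 10 tested cysteine proteases (green) and 8 granule serine proteases (purple), with filled points for genes past the threshold. Mcpt8, at -2.05, is the only filled point, and the cysteine proteases lie between -0.30 and 0.50.

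The genes whose levels varied most like each member were found by the root mean square difference of their log2 CPM over the 6 libraries, each gene centred on its own mean, among 12888 other tested genes, with predicted genes and antigen receptor segments left out, for members with a mean of at least 5 CPM. Stfa1 was nearest to Atf5, a stress-response transcription factor (0.22), Aldh3b2, an aldehyde dehydrogenase (0.23), and Card9, a signalling adaptor of myeloid cells (0.25). Aldh3b2 and Card9 averaged under 5 CPM in both groups. Stfa2l1 was nearest to Clec11a (0.16), Krt83 (0.16) and Ppp1r42 (0.18). Cstb was nearest to Ankmy2, Chchd2 and Cnot8 (0.03 to 0.05) and Cst7 to Itgb3bp, Raly and Ap1g1 (0.11 for each). The nearest genes of Stfa1 were farther from it than those of the other 4 members were from theirs. Stfa2 and Stfa3 were below 5 CPM and were not compared.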

How the data were processed

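RNA of sorted HSCs was sequenced in 4 MC38 and 3 control libraries, and the authors deposited raw read counts per Ensembl gene in a single table. HTSeq 0.10.0, STAR 2.6.1 and Trim Galore 0.5.0, with the mm10 build, are named per the submitters' processing notes. Strand setting, filters and annotation release are not stated in these sources. Without molecular identifiers in the labels' protocols, PCR copies count as separate reads. Symbols, coordinates and transcripts came from GENCODE release 21 for mouse (GRCm38) and promoters from RefSeq (GRCm38.p6). Counts of 4 MC38 and 2 control libraries were fitted in edgeR 4.0.16 under R 4.3.3 (filterByExpr, TMM, robust quasi-likelihood test, two-sided, Benjamini-Hochberg adjustment over all 14226 genes tested, threshold 0.05, no block), and the procedure was tested on simulated data. The column of control replicate 3 was left out: for 99.4% of 18542 genes, tripling it gave at least controls 1 and 2 added up (tolerance 1.5 counts). Standard errors are the fitted log2 fold change divided by the root of the F statistic. Alternatives used DESeq2 1.42.0, limma-voom (limma 3.58.1), DESeq2 size factors, no filter, all 7 columns, the replicate number as a block, and each library left out. The genes named are the 7 members, list genes past the threshold or else the 2 of smallest p, the 3 genes nearest to each member (those of Cst3 are not reported here) and the defining markers. The members and lists were chosen with earlier results of these data known. Alignments used Biopython 1.88.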

Additional observations from a re-analysis of the deposited data

Results flagged for a closer look

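Among the 4 MC38 libraries, replicate 4 stood apart for Stfa2l1 at 36.18 CPM, where the next highest library was at 31.49 CPM. The gap was 0.834 of the whole range, above the 95% critical value of Dixon's test for 4 samples. Chance flags about 1 in 20 groups, and 21 groups of values were examined. Without this library the log2 fold change of Stfa2l1 was 1.60.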

How the results depend on the processing

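Of 147 values recomputed under alternatives, 119 were labelled unchanged, and 38 of 48 were for the list genes. For a tested gene, unchanged meant the same direction and the same side of the threshold. For Stfa1 and the stefin A sum it meant a shift within the replicate spread. Counts of calls had to stay within a set ratio of the main count, and shares of transcript stretches within their 95% interval. The cathepsin counts, 0 throughout, are among the unchanged values. The 229 genes called became 1454 with all 7 columns, 504 without the filter, 1027 with DESeq2 and 459 with the replicate block. Leaving out a library gave 60 to 442 calls. Over these fits the log2 fold change of Stfa1 ran from 2.08 to 2.92 and that of Stfa2l1 from 1.36 to 2.01. It ran from -0.47 to 0.086 for Cstb and from -0.068 to 0.15 for Cst3, which was at -0.0085 without MC38 replicate 1. Calls numbered 1 to 4 for other cystatin superfamily genes and 0 to 1 for the serine proteases, which had 2 calls with DESeq2 and 2 with all 7 columns. Of the serine protease calls, those with DESeq2 were 1 higher and 1 lower, and those with all 7 columns were both lower. Cst7 passed at -0.73 with all 7 columns and at -0.74 with DESeq2. Stfa2 was at -0.0038 with the replicate block. With 100 bases in place of 50, the stretches in no other gene were 94.9% for Stfa1, 100% for Stfa2 and 100% for Stfa2l1. The cause of these shifts was not tested. Across genes, the deviations of same-numbered libraries from their group means correlated at 0.0606 for number 1 and -0.0173 for number 2. With 2 controls, the deviation of one mirrors that of the other, so these values depend on each other. They cannot show whether same-numbered libraries share a batch that acts on some genes. With 2 controls, a change must be large against their spread to pass.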
